A study of Mus musculus with 32 samples.

Results

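The comparison described here set RNA recovered around PSD95 against RNA recovered from the whole neuron, in neurons that had just been depolarized. It used 8 of the 32 libraries of the series, namely the 4 pulldown libraries titled as depolarized PSD95 and the 4 titled as depolarized Pan, joined in pairs by the replicate number in their titles. All libraries came from primary cortical neurons of embryonic CD-1 mice, transduced with a doxycycline-inducible lentivirus carrying TurboID, a biotin ligase that tags proteins close to it. In the PSD95 libraries the ligase was fused to PSD95 and flanked by the untranslated regions of its mRNA, which carried it to dendrites and postsynaptic sites. In the Pan libraries it had no localization signal and tagged proteins throughout the neuron. Every culture, resting ones included, received cycloheximide for 2 minutes ahead of 30 minutes of biotin and was UV-irradiated with 400 and then 200 mJ/cm2. The depolarized cultures had first spent 2 hours in tetrodotoxin and DL-AP5 to silence them, and were then kept in 55 mM KCl for 1 hour. They were left to recover for 30 minutes in fresh medium that held biotin and the same silencers. The 8 resting pulldowns and the 16 inputs, each input being 15% of a lysate, are given below only as background.

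PSD95 is the main scaffold of the excitatory postsynaptic density, where it holds glutamate receptors and signalling enzymes beneath the synaptic membrane. Proximity labelling joined to UV crosslinking recovers the RNA that was in contact with the tagged proteins, so that a PSD95 to Pan ratio reads how strongly an RNA is represented near the scaffold relative to the neuron as a whole. High potassium opens voltage-gated calcium channels and is a standard way to drive activity-dependent transcription, RNA transport and local translation in cultured neurons. In bulk libraries such as these, a ratio cannot tell fewer copies of an RNA near the scaffold from fewer copies in contact with tagged proteins. The deposited identifiers are UCSC transcript names, of which 0 matched the gene tables used here, so transcripts are described by identifier and length, and the labelled cell type could not be checked against marker genes.

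Between 5411493 and 15415113 counts were assigned in each of the 8 libraries, and between 18434 and 31502 transcripts reached 10 counts. One transcript, uc009sgd.1, took 2.45%, 3.81%, 70.2% and 11.8% of the counts in PSD95 replicates 1 to 4, and 4.97%, 20.5%, 48.3% and 6.58% in the Pan replicates. Both libraries of replicate 3 stood apart in this respect. The counts left after removing this transcript and uc033jng.1, the only other one averaging over 1% of counts, numbered 1608314 in PSD95 replicate 3 and between 4727141 and 14341739 in the remaining libraries. The free-text descriptions of 2 of the 8 libraries, those of replicate 2, named the resting state, and the titles were followed.

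How many single transcripts differed between PSD95 and Pan after depolarization depended on the test. Of 32553 transcripts tested, 5 passed an adjusted p of 0.05, or 0.0154%, with 2 higher (0.00614%) and 3 lower (0.00922%) in the PSD95 pulldowns. The higher ones were long, at 6982 and 11472 nt, and abundant, whereas the lower ones were short, at 449, 524 and 775 nt. All 5 went the same way in 4 of 4 replicates, where 6.88% of all tested transcripts were higher in 4 of 4 and 6.8% lower. The same replicates served to call them. Without adjustment, 2366 transcripts (7.27%) had a p under 0.05, of which 1231 were higher and 1135 lower with PSD95. The matching inputs gave 3 calls among 27887 transcripts (0.0108%), and 1985 (7.12%) had an unadjusted p under 0.05. At rest, limma called 0 transcripts between the same constructs, with 2128 (6.54%) at an unadjusted p under 0.05. None of the 5 transcripts had whole-number counts, which means that salmon divided their reads with other transcript models, and their levels are uncertain to that extent.

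Of the pair that rose with PSD95, uc007pau.3 (11472 nt) had levels of 4031, 2851, 2848 and 2974 CPM in PSD95 replicates 1 to 4 and of 2557, 1748, 2792 and 2557 CPM in the Pan replicates (after TMM scaling). The ranges of the constructs did not touch, although the lowest PSD95 level exceeded the highest Pan level only slightly. The share of all tested transcripts whose groups did not overlap was 2.75%. Mean levels were 3176 ± 573 CPM with PSD95 and 2413 ± 458 CPM with Pan (SD, n = 4), and the fitted log2 difference was 0.52 ± 0.069 (SE, adjusted p = 0.0467, limma). The ratio of PSD95 to Pan ran from 1.02 in replicate 3 to 1.63 in replicate 2. At rest the fitted difference was -0.11 ± 0.063 (adjusted p = 0.812, limma), and the change between states, 0.63 ± 0.088, did not pass the test (adjusted p = 0.152).

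The other, uc008gfj.2 (6982 nt), lay just under the log2 limit of 0.5 set for naming and was picked out after its values were seen. It had 8107, 7003, 6778 and 5002 CPM with PSD95 and 5487, 4378, 5767 and 4595 CPM with Pan after depolarization. PSD95 was the higher member of each pair, by a ratio between 1.09 and 1.60, but the ranges overlapped. Its log2 difference was 0.50 ± 0.051 (SE, adjusted p = 0.0160, limma). At rest the order was turned round in 4 of 4 replicates, with 6025, 5081, 6316 and 4791 CPM for PSD95 and 6557, 7090, 6879 and 5079 CPM for Pan. That resting difference of -0.13 ± 0.040 did not pass adjustment (adjusted p = 0.624, limma). The difference between states was 0.63 ± 0.063 (adjusted p = 0.0117, limma), the single call among 32553 transcripts (0.00307%) when the PSD95 to Pan ratio of depolarized neurons was set against that of resting neurons. This call was lost on leaving out any replicate number, with adjusted p between 0.160 and 0.758.

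The depolarized inputs leaned the same way for both long transcripts. For uc008gfj.2 the depolarized inputs held 2415, 2595, 1900 and 1793 CPM with PSD95 and 1472, 1614, 2120 and 1142 CPM with Pan, a log2 difference of 0.61 ± 0.14 (adjusted p = 0.405, limma). In uc007pau.3 the input difference was 0.50 ± 0.12 (adjusted p = 0.429, limma). For each of them PSD95 was higher in 3 of 4 depolarized input pairs. The resting inputs differed by -0.26 ± 0.086 for uc008gfj.2 and -0.16 ± 0.092 for uc007pau.3 (adjusted p = 0.887 and 0.9995, limma). PSD95 was higher there in 2 of 4 and 1 of 4 pairs. Whether the input difference changed between states was not tested for these transcripts. Taking pulldown over input after depolarization, the PSD95 to Pan difference was -0.38 ± 0.14 for uc008gfj.2 and -0.17 ± 0.80 for uc007pau.3 (adjusted p = 0.953 and 0.998, limma). By replicate, the CPM ratios of uc008gfj.2 were 3.36, 2.70, 3.57 and 2.79 with PSD95 and 3.73, 2.71, 2.72 and 4.02 with Pan. Those of uc007pau.3 were 3.94, 3.35, 4.53 and 4.31 with PSD95 and 3.85, 3.08, 4.11 and 4.36 with Pan. PSD95 was lower only in replicate 4 for uc007pau.3, against the sign of its fit. The recovery of these long transcripts relative to their inputs was thus not shown to be higher with PSD95. Across all transcripts the pulldown over input test gave 0 calls among 34696 with limma, and 1815 (5.23%) had an unadjusted p under 0.05. Input and pulldown levels were scaled within their own fraction, so their CPM values are not comparable with each other. The ratios above serve only to compare the constructs.

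Among the transcripts that fell with PSD95, uc008cal.1 (524 nt) had 117, 126, 58.4 and 94.9 CPM with PSD95 and 238, 253, 113 and 159 CPM with Pan. Each PSD95 level was between 0.490 and 0.599 of its Pan partner, while the ranges over all replicates overlapped because Pan replicate 3 was low. The log2 difference was -0.93 ± 0.11 (SE, adjusted p = 0.0409, limma). At rest the difference was 0.04 ± 0.11 (adjusted p = 0.970, limma), and the change between states of -0.97 ± 0.15 did not pass adjustment (adjusted p = 0.165, limma).

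A second short transcript, uc008fpw.2 (775 nt), was at 118, 131, 84.2 and 144 CPM with PSD95 and at 213, 209, 138 and 212 CPM with Pan. The paired ratios were between 0.552 and 0.678, and the log2 difference was -0.77 ± 0.10 (adjusted p = 0.0467, limma). Resting pulldowns differed by -0.11 ± 0.11 (adjusted p = 0.890, limma). The third, a transcript of 449 nt, was at 160, 159, 107 and 186 CPM with PSD95 against 399, 306, 151 and 269 CPM with Pan, a log2 difference of -1.02 ± 0.14 (adjusted p = 0.0467, limma). Its resting difference was 0.05 ± 0.14 (adjusted p = 0.967, limma).

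Of the 3 short transcripts, 3 lay below 0 in the inputs too, by less: -0.33 ± 0.083 for uc008cal.1, -0.13 ± 0.087 for uc008fpw.2 and -0.39 ± 0.088 for the transcript of 449 nt. None of these input differences passed adjustment. Pulldown over input, the differences were -0.56 ± 0.14, -0.63 ± 0.12 and -0.72 ± 0.18 in the same order (adjusted p = 0.603, 0.242 and 0.603, limma). Just outside the threshold lay a transcript of 565 nt, lower by -0.81 ± 0.11 on the log2 scale (adjusted p = 0.0543, limma).

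**Figure D1:**
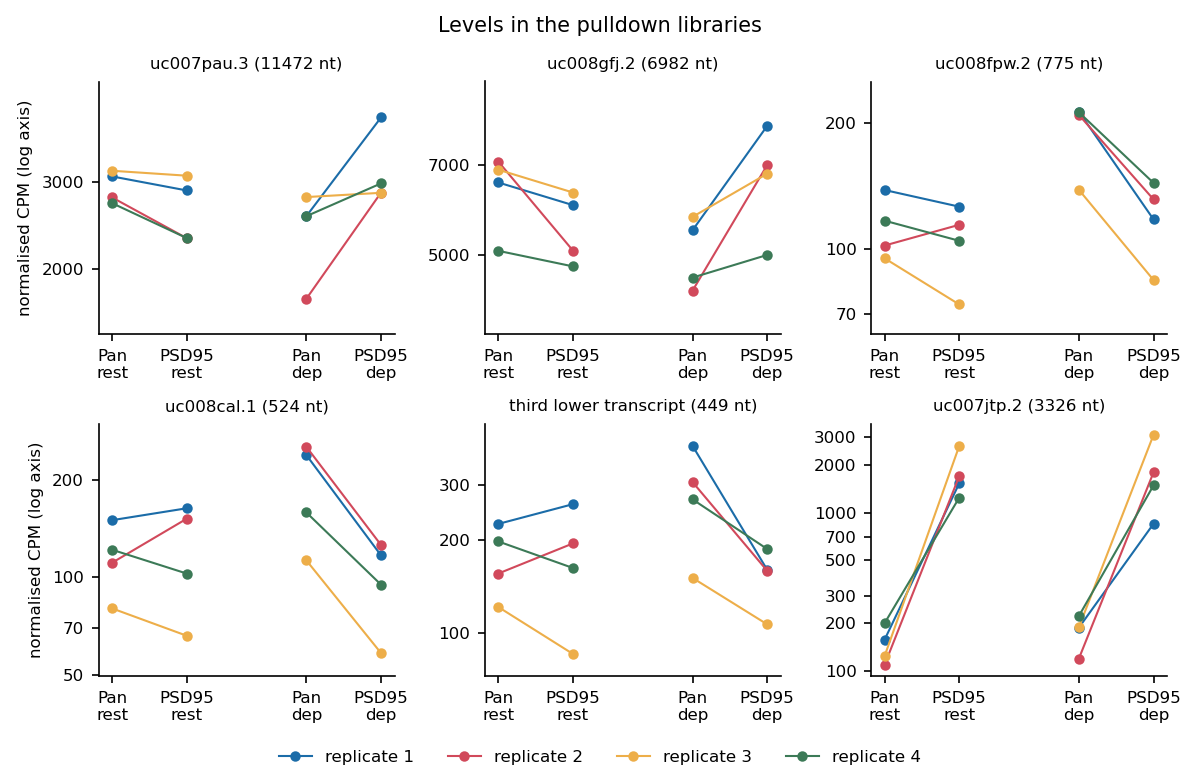
Level of each of the 5 called transcripts and of uc007jtp.2 in the pulldown libraries (normalised CPM, log axis), with a line joining the Pan and PSD95 library of each replicate, at rest and after depolarization. After depolarization the lines rise in 4 of 4 replicates for uc008gfj.2, uc007pau.3 and uc007jtp.2 and fall in 4 of 4 for the 3 short transcripts.

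These 5 calls rested on the test and on all 4 replicates. None of the 5 passed with edgeR, whose single call was uc007jtp.2 (described next), nor with limma without quality weights (adjusted p from 0.0666 to 0.0743), without the replicate block, or on the 8 depolarized pulldowns alone, each of which called 0 in all, with 2678, 2034 and 1736 transcripts at an unadjusted p under 0.05. DESeq2 called all 5 among 626, of which 315 were higher and 311 lower. Leaving out any replicate number removed each of them (adjusted p from 0.0987 to 0.809, limma), although the direction was kept in each of these fits. Leaving out PSD95 replicate 1 alone brought the log2 difference of uc008gfj.2 from 0.50 to 0.17 and that of uc007pau.3 from 0.52 to 0.26. The calls of these long transcripts were also lost without Pan replicate 1 or Pan replicate 2, and that of uc008gfj.2 without Pan replicate 4. uc008cal.1 was kept only without Pan replicate 3 or 4, the transcript of 449 nt only without Pan replicate 3 or 4 or PSD95 replicate 4, and uc008fpw.2 in none of the 8 single-library omissions (adjusted p from 0.0517 to 0.548, limma).

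The largest difference between the constructs among the transcripts followed by name was not a call. uc007jtp.2 (3326 nt), taken up because it showed a large PSD95 to Pan difference at rest in earlier work on these files, had 851, 1795, 3098 and 1486 CPM with PSD95 and 188, 120, 189 and 222 CPM with Pan. The groups were far apart, with paired ratios of 4.53, 15.0, 16.4 and 6.69. The log2 difference was 2.88 ± 0.54 (SE, adjusted p = 0.188, limma), and edgeR and DESeq2 put it past the threshold (adjusted p = 0.0495 and 4.36e-18). Without PSD95 replicate 1 the limma value was 3.32 (adjusted p = 0.00245).

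No change of this difference with depolarization was detected, although the interval was wide. The resting pulldowns differed by 3.44 ± 0.47 on the log2 scale, and the change between states was -0.55 ± 0.70, with a 95% interval from -2.09 to 0.98 (adjusted p = 0.877, limma). PSD95 was also higher in 4 of 4 depolarized input pairs, at 617, 840, 1468 and 232 CPM against 283, 142, 211 and 196 CPM, a log2 difference of 1.46 ± 0.45 (adjusted p = 0.589, limma). The resting inputs were higher with PSD95 in 4 of 4 pairs, by 2.88 ± 0.40 (adjusted p = 0.0802, limma). Pulldown over input after depolarization, the difference was 0.85 ± 1.79 (adjusted p = 0.997, limma). By replicate, those CPM ratios were 1.38, 2.14, 2.11 and 6.41 with PSD95 and 0.66, 0.84, 0.89 and 1.14 with Pan. The construct carries PSD95 sequence in the PSD95 cultures only, and the part of its own reads in these levels was not tested.

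The PSD95 to Pan ratio after depolarization went with transcript length. Among 8225 abundant transcripts, those with a mean of at least 200 counts over the pulldowns, the median fitted log2 difference was -0.58 for the 49 transcripts of 300 to under 500 nt and -0.39 for the 258 of 500 to under 1000 nt. It was -0.20 for the 1082 of 1000 to under 2000 nt, -0.07 for the 3162 of 2000 to under 4000 nt and -0.00 for the 3004 of 4000 to under 8000 nt. At 8000 nt and above it was 0.01, over 661 transcripts. The 9 abundant transcripts under 300 nt did not follow this order, with a median of 0.33. With 9 members this class is thinly filled.

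**Figure D2:**
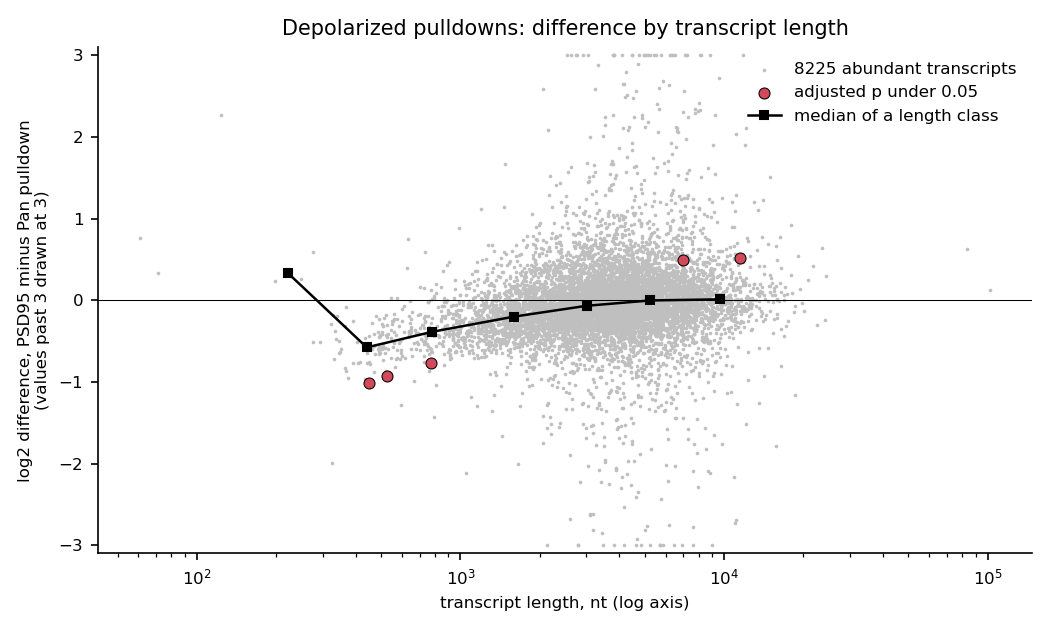
Fitted log2 difference between depolarized PSD95 and Pan pulldowns (vertical axis) against transcript length in nt (log axis) for 8225 abundant transcripts in grey, with the 5 called transcripts in red and the median of each length class as black squares. The medians climb from -0.58 at 300 to under 500 nt to 0.01 at 8000 nt and above.

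From 300 nt up to 8000 nt the medians rose from class to class in each replicate, to differing degrees. Relative to the median of all abundant transcripts, the class of 300 to under 500 nt stood at -0.68, -0.67, -0.43 and -0.25 on the log2 scale in replicates 1 to 4. The class of 500 to under 1000 nt stood at -0.40, -0.45, -0.31 and -0.18. Long transcripts lay slightly above the median, the class of 4000 to under 8000 nt at 0.08, 0.12, 0.04 and 0.03. At 8000 nt and above the values were 0.12, 0.20, 0.01 and 0.01, higher still in replicates 1 and 2 but below the preceding class in replicates 3 and 4. The depolarized inputs leaned the same way for long transcripts, at 0.03, 0.09, 0.04 and 0.01 for 4000 to under 8000 nt. At 8000 nt and above the input values were 0.11, 0.21, 0.04 and 0.05, a mean of 0.10 against 0.09 in the pulldowns.

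As 1 group, the 316 abundant transcripts under 1000 nt were at -0.44, -0.47, -0.31 and -0.18 in replicates 1 to 4, with a mean of -0.35 ± 0.13 (SD, n = 4; exact two-sided sign-flip permutation p = 0.13, the smallest that 4 pairs allow). In the depolarized inputs the same transcripts were at -0.10, -0.11, -0.18 and -0.01, a mean of -0.10 ± 0.072. The pulldown values were below those of the inputs in 4 of 4 replicates, with a mean difference of -0.25 ± 0.12 (exact p = 0.13). In the resting pulldowns they were at 0.07, 0.21, -0.05 and -0.10, on both sides of 0 (exact p = 0.75). The depolarized minus resting difference of the pulldowns was -0.51, -0.68, -0.26 and -0.07, below 0 in 4 of 4 replicates, with a mean of -0.38 ± 0.27 (exact p = 0.13). Over the 22 sign-flip tests computed on length classes the smallest Benjamini-Hochberg adjusted p was 0.183, so this design could pass no threshold of 0.05. Without replicate 3, whose libraries were dominated by uc009sgd.1, the depolarized pulldown mean was -0.36.

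**Figure D3:**
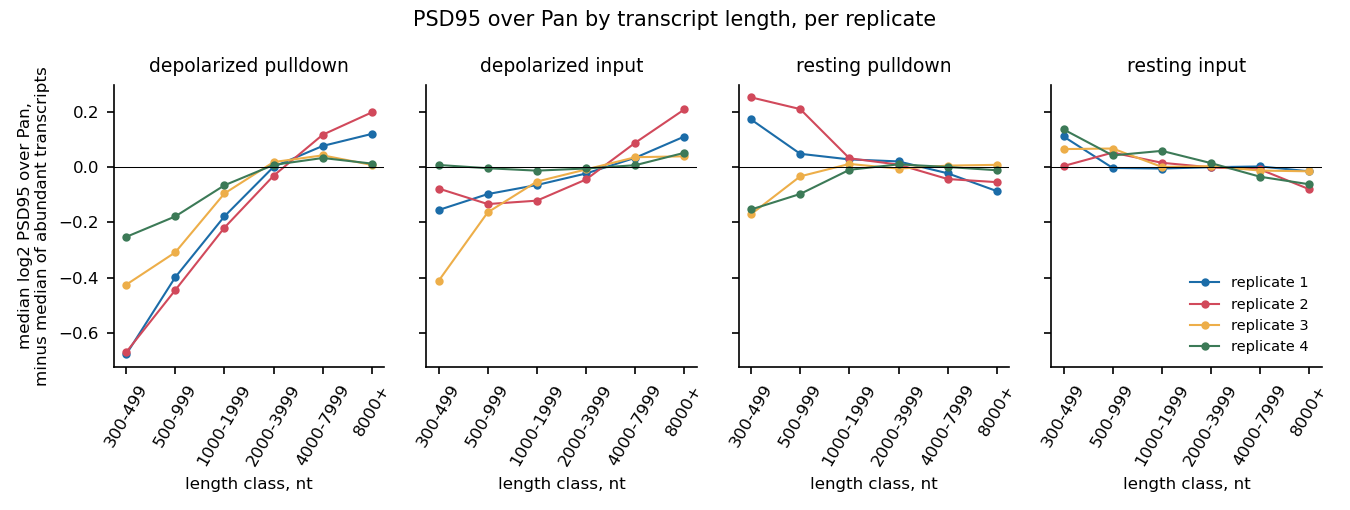
Median log2 ratio of PSD95 to Pan by length class (nt), minus the median of all abundant transcripts, with a line for each replicate, in the pulldowns and inputs of depolarized and resting neurons; transcripts under 300 nt are left out. In the depolarized pulldowns the class of 300 to under 500 nt lies at -0.68 to -0.25 in the 4 replicates.

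Mean fragment length moved with the constructs as well. As read from the effective lengths that salmon assigned, fragments averaged 153.68, 162.25, 166.08 and 147.57 nt in the PSD95 pulldowns and 148.24, 152.18, 158 and 140.53 nt in the Pan pulldowns. PSD95 fragments were the longer by 5.44, 10.07, 8.08 and 7.04 nt in the 4 pairs. The resting pulldowns differed by -12.28, 10.57, 9.44 and -12.34 nt, and the depolarized inputs by -1.27, 3.16, 16.27 and -21.37 nt. The part of fragment length in the values by transcript length was not tested.

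Setting each pulldown against its own input showed how either construct recovered short transcripts. Abundant transcripts under 1000 nt were under-represented in every pulldown. In depolarized PSD95 samples they stood at -0.67, -0.45, -0.52 and -0.33 relative to the median log2 pulldown over input, a mean of -0.49 ± 0.14 (SD, n = 4). In depolarized Pan samples they stood at -0.27, -0.08, -0.47 and -0.17, a mean of -0.25 ± 0.17. PSD95 was the lower of each pair.

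Resting neurons gave nearly equal values for both constructs, -0.54 ± 0.042 with PSD95 and -0.52 ± 0.097 with Pan. From rest to depolarization the PSD95 value moved by 0.05 ± 0.17 (exact permutation p = 0.625) and the Pan value by 0.28 ± 0.23 (exact permutation p = 0.25), each upward in 3 of 4 replicates; whether the movements differ between constructs was not tested. Inputs of the depolarized neurons were uneven in depth. The 2 most abundant transcripts took 90.4% of the counts in Pan input replicate 4, which left 657143 other counts and had fragments of 198 nt, and 85.3% in PSD95 input replicate 3, which left 1295844. Chosen after seeing the data, leaving out replicates 3 and 4 gave -0.56 with PSD95 and -0.18 with Pan after depolarization (n = 2), and movements from rest of -0.05 and 0.42; the sign of the PSD95 movement thus turned.

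**Figure D4:**
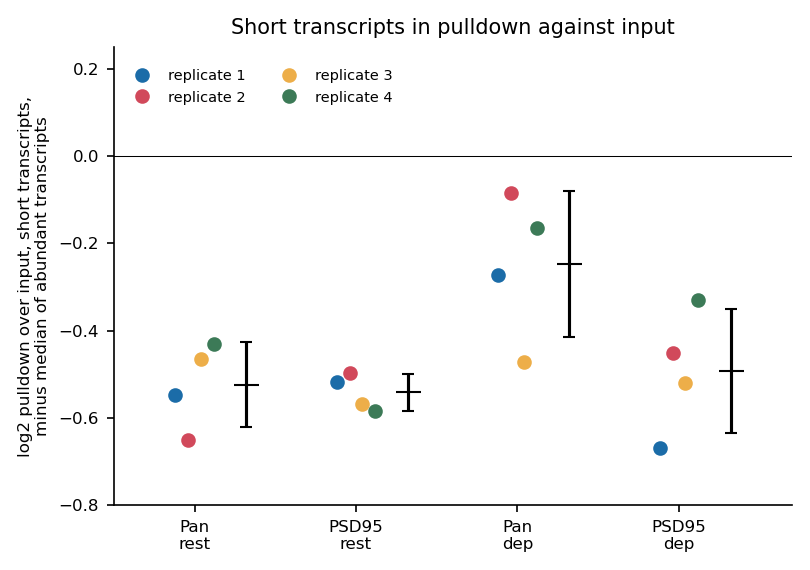
Log2 pulldown over input of the 316 abundant transcripts under 1000 nt, minus the median of all abundant transcripts, as 1 point per replicate for Pan and PSD95 at rest and after depolarization, with the mean and SD. Depolarized Pan samples lie highest on average, at -0.25, and the other groups between -0.54 and -0.49.

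Counts of transcripts at an unadjusted p under 0.05 also favoured Pan from 300 to under 2000 nt. Of 327 tested transcripts of 300 to under 500 nt, 39 (11.9%) were lower with PSD95 at an unadjusted p under 0.05 and 4 (1.22%) higher. For the 1963 of 500 to under 1000 nt the counts were 139 (7.08%) and 50 (2.55%). For the 7273 of 1000 to under 2000 nt they were 260 (3.57%) and 201 (2.76%). From 2000 nt the balance turned, with 409 of 13965 (2.93%) lower and 540 (3.87%) higher below 4000 nt, and 231 of 7679 (3.01%) lower and 363 (4.73%) higher from there to 8000 nt. Above that, 52 of 1106 (4.70%) were lower and 65 (5.88%) higher. Under 300 nt, 5 of 240 were lower and 8 higher. Over all transcripts 3.49% were lower and 3.78% higher.

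A looser reading by the t-statistic kept the order of higher and lower in each length class except 1000 to under 2000 nt. A t above 1 was reached by 7212 of 32553 transcripts (22.2%) and a t below -1 by 5378 (16.5%). In the class of 300 to under 500 nt the shares were 11.6% and 30.6%. Under 300 nt they were 27.9% and 5.83%, the opposite order. At 1000 to under 2000 nt 19.2% had a t above 1 and 17.2% a t below -1, whereas at an unadjusted p under 0.05 more were lower.

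The share of reads under 1000 nt was also lower with PSD95, once the most abundant transcripts were set aside. Outside the transcripts averaging over 1% of counts, transcripts under 1000 nt took 4.48%, 4.41%, 4.35% and 5.72% of the reads in PSD95 replicates 1 to 4 and 6.36%, 5.81%, 4.95% and 5.88% in the Pan replicates. The log2 ratio was -0.50, -0.40, -0.19 and -0.04, a mean of -0.28 ± 0.21 (SD, n = 4; exact sign-flip permutation p = 0.13). Replicate 4 was close to equality. As a share of all reads, the most abundant transcripts included, the value was -0.18 ± 0.44. Within the class, transcripts under 300 nt gave 0.10 ± 0.51, below 0 in 2 of 4 replicates. Transcripts of 4000 to under 8000 nt gave 0.05 ± 0.040, above 0 in 4 of 4 replicates (exact p = 0.13).

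Transcripts whose counts were whole numbers in every library showed no trace of divided reads in their counts. A whole number, 0 included, does not exclude that shared reads went entirely to a single transcript model. There were 8856 of them, of which 3687 were tested when they were fitted alone, and 31 passed an adjusted p of 0.05 (0.841%). Of these, 28 were lower with PSD95 (0.759%) and 3 higher (0.0814%). The median length of the lower ones was 836 nt, ranging from 108 to 3498 nt, against 1925 nt for all whole-number transcripts tested. Of the 28, 19 were shorter than 1000 nt, a length shared by 698 of the 3687. Their log2 differences ran from -1.62 to -0.35 with a median of -0.63. Of the 28, 26 were lower in 4 of 4 replicates, as were 502 of all 3687. The same libraries served to call the 28, so this agreement between replicates is not separate support. None of the 31 was among the 5 calls above, which have divided reads. The 31 were also among the 32553 transcripts tested above, where none of them passed. Their calls came from the fit of whole-number transcripts alone.

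By length, 5 of 54 whole-number transcripts of 300 to under 500 nt were lower (9.26%), 13 of 476 of 500 to under 1000 nt (2.73%), 6 of 1220 of 1000 to under 2000 nt and 3 of 1324 of 2000 to under 4000 nt. At 4000 nt and above there were none. The one with the smallest p, of 1825 nt, had 99.4, 125, 90.6 and 94.0 CPM with PSD95 and 202, 161, 148 and 181 CPM with Pan, and its groups did not overlap (log2 difference -0.82 ± 0.13, adjusted p = 0.00301, limma). It was lower at rest as well, by -0.71 (log2, fit of all transcripts). In the depolarized inputs it was lower by -0.52 (log2, inputs fitted on whole-number transcripts alone). The same fits gave the resting and input values of the transcripts below. Another of 725 nt had 140, 150, 96.1 and 150 CPM against 252, 236, 156 and 190 CPM (-0.67 ± 0.12, adjusted p = 0.00317, limma), with -0.04 at rest and -0.17 in the depolarized inputs. One more, of 894 nt, had 81.4, 68.7, 76.7 and 90.4 CPM against 128, 111, 123 and 130 CPM (-0.64 ± 0.12, adjusted p = 0.00606, limma), with -0.05 at rest and -0.02 in the depolarized inputs.

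In the resting pulldowns these 28 transcripts had a median log2 difference of -0.03 in the fit of all transcripts. Below 0 were 19 of the 28, and 1899 of all 3687 whole-number transcripts tested. The difference between states was below 0 for 28 of 28, and for 1974 of the 3687. Of the 28, 23 had an unadjusted p under 0.05. Lower at that p were 3.66% of all transcripts and 180 of the 3687. The choice of the 28 used the depolarized pulldowns that enter this contrast. The depolarized inputs leaned the same way when all transcripts were fitted, with a median of -0.22. Below 0 were 25 of the 28, and 1563 of 2947 whole-number transcripts. Of the 25, 14 had an unadjusted p under 0.05 and 1 passed adjustment. Lower at that p were 125 of the 2947, and 7.12% of all transcripts had it in either direction. When the inputs were fitted on whole-number transcripts alone, the median was -0.14, with 5 of 28 at an unadjusted p under 0.05 (7.13% of all whole-number transcripts there) and 0 after adjustment. Only 2 of 2973 whole-number transcripts were called in those inputs (0.0673%). Pulldown over input, 28 of 28 lay below 0, and 2045 of 3641 whole-number transcripts. Of the 28, 17 had an unadjusted p under 0.05. Lower at that p were 2.65% of all transcripts and 81 of the 3641. The pulldown side was again the one used in choosing them.

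Of the 3 whole-number transcripts that rose, 1 was only 61 nt long (log2 difference 0.86 ± 0.19, adjusted p = 0.0248, limma). Another, of 679 nt, had between 13 and 47 counts in the PSD95 libraries and 0 in the 4 Pan libraries. Set against a floor of 3 counts over the Pan group, which covers counting error only, it was at least 5.45 higher on the log2 scale. In resting neurons it was seen in 3 of 4 Pan libraries and in 1 of 4 PSD95 libraries. The number of calls in this set depended on the settings: edgeR called 13, the fit with no replicate block 0, and leaving out a replicate number gave 6, 3, 66 and 46 for replicates 1 to 4 in turn. Lower transcripts made up 3, 61 and 39 of the calls without replicates 2, 3 and 4, but 2 of the 6 without replicate 1, where 4 were higher, so the excess of lower calls was lost and turned round without replicate 1.

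**Figure D5:**
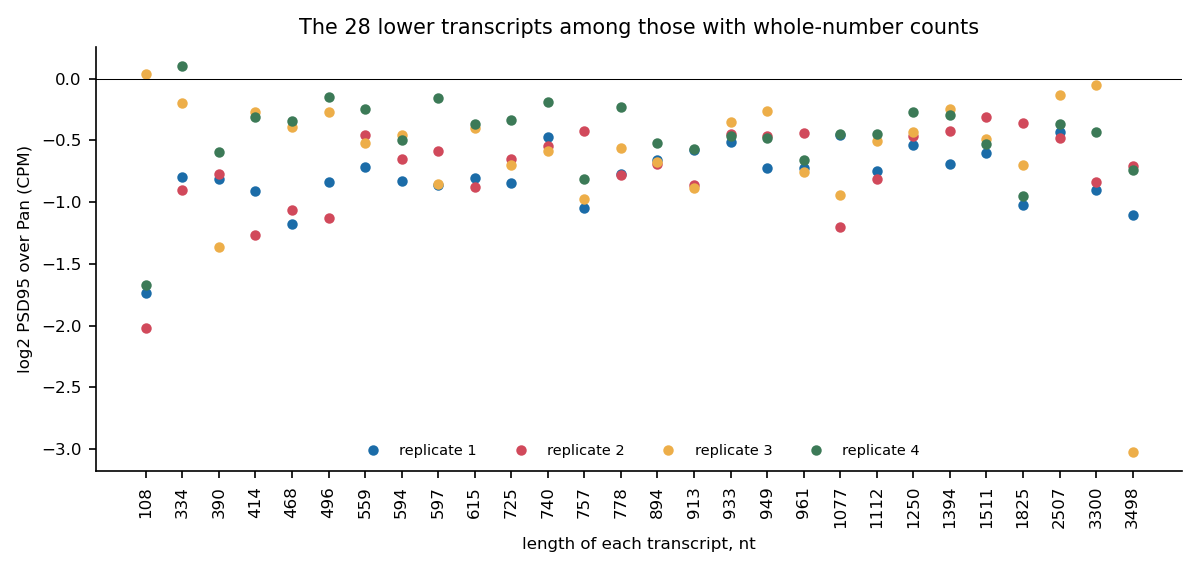
Log2 ratio of PSD95 to Pan in CPM for each of the 28 lower whole-number transcripts, 1 point per replicate, ordered and labelled by length in nt. In 26 of the 28 all 4 points lie below 0, and 19 of the 28 are shorter than 1000 nt. The 28 were called on these same libraries.

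Beyond these sets the PSD95 to Pan ratio of a transcript repeated poorly between replicates. Across 8225 abundant transcripts the Pearson correlation of the log2 ratio between pairs of replicates ran from -0.11 to 0.13, and the Spearman correlation from -0.03 to 0.34. These are descriptions across transcripts of the same libraries, and transcripts are not independent replicates. Transcripts higher in 4 of 4 replicates numbered 776 and those lower in 4 of 4 numbered 784, together 19.0%. With whole-number transcripts the Pearson correlation ran from -0.04 to 0.53 over 1185 transcripts. The depolarized inputs had Pearson values from -0.04 to 0.13 over the same 8225.

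Precision followed the depth of a transcript. The half-width of the 95% interval of the log2 difference had a median of 2.72 for transcripts averaging under 50 counts, 1.27 at 50 to under 200 counts, 0.54 at 200 to under 1000, 0.31 at 1000 to under 5000 and 0.24 at 5000 or more. An interval lying wholly within a 2-fold difference in either direction was obtained for 5582 of the 8225 abundant transcripts (67.9%), but for only 0.213% of those under 50 counts. For most low transcripts a 2-fold difference was therefore not detectable at this depth.

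A small number of transcripts was seen with a single construct. With at least 10 counts in each of 4 libraries of one construct and 0 in the 4 of the other, 13 were found with PSD95 alone and 6 with Pan alone, beside 12761 transcripts that reached 10 counts in all 8. None passed the test over all 32553 transcripts (lowest adjusted p = 0.188, limma). Only 1 of the 19 had whole-number counts, the transcript of 679 nt described above, which passed when whole-number transcripts were fitted alone (adjusted p = 0.00606, limma). All 19 were seen in at least 1 resting pulldown of the construct that lacked them after depolarization. Set against a floor of 3 counts over the other group, the differences came to 4.83 to 8.94 on the log2 scale. This floor covers counting error and not the division of reads by salmon. For transcripts with divided reads the differences are therefore not lower bounds.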

How the data were processed

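RNA was sequenced from 32 libraries in 8 groups of 4, made from about 100 ng of RNA by a stranded protocol with ribosomal RNA depletion. The authors quantified reads with salmon against mm10 UCSC knownGene transcripts (its version is not given in the sources used here), and limma and DESeq also appear in the submitters' processing notes. The deposited files hold expected counts, in which reads matching several transcripts are divided among them, and TPM, which was not tested. Groups and replicate numbers came from titles, not from the free-text descriptions, which number replicates differently and name the other state for 8 libraries.

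Expected counts were rounded to whole numbers and tested with limma 3.58.1 (voomWithQualityWeights) in R 4.3.3, after the TMM scaling and filterByExpr filter of edgeR 4.0.16, with terms for group and replicate number, over the 16 pulldowns, the 16 inputs, or all 32 libraries for pulldown over input. Adjusted p is by Benjamini-Hochberg over all transcripts, at 0.05, and 5 comparisons were made. Each contrast was fitted as a coefficient of its own design, because limma's contrasts.fit only approximates standard errors when weights and a block are combined. Quality weights of the 8 libraries ran from 0.485 to 1.74, the highest for PSD95 replicate 3. For length classes, CPM with a prior count of 2 was taken to log2, with exact two-sided sign-flip permutation tests over replicates. Transcripts were called whole-number where each library's estimate lay within 0.001 of an integer. Fragment length was transcript length minus effective length, for transcripts over 3000 nt.

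Replicates were paired because the study's methods treat them as biological replicates processed together. Residuals of PSD95 and Pan pulldowns with the same number correlated with r of 0.149, 0.035, 0.0038 and 0.077 over 8225 transcripts, against a mean of -0.020 for different numbers. Named transcripts were the 2 with the smallest p in each direction among calls averaging log2 CPM 1 or more and differing by log2 0.5 or more, plus uc007jtp.2 and transcripts averaging over 1% of counts; a lone higher transcript met the rule. Members, rules and lists were chosen with earlier results of these data known. Alternatives were DESeq2 1.42.0, the quasi-likelihood test of edgeR, other scalings, filters, libraries and designs, and leaving out libraries. The limma, edgeR and DESeq2 fits of the depolarized pulldown contrast were tried on simulated data first. Intervals and floors cover counting error or the spread between these libraries only. Python 3.11.15 and matplotlib 3.10.9 drew the figures.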

Additional observations from a re-analysis of the deposited data

Results flagged for a closer look

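Single libraries lay far from the other 3 of their group in 5 of the 46 groups examined, where chance gives about 1 in 20. Given as the gap to the nearest library over the range of the group, PSD95 replicate 3 was high in its share of uc009sgd.1 (0.861) and of uc033jng.1 (0.912) in the depolarized pulldowns. PSD95 replicate 1 was high in uc007pau.3 (0.893), Pan replicate 3 was low in uc008fpw.2 (0.949), and the depolarized Pan input of replicate 1 was high in the transcript of 449 nt (0.833).

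The PSD95 to Pan difference of uc008gfj.2 differed between depolarized and resting pulldowns by 0.63 on the log2 scale (adjusted p = 0.0117, limma). This call was kept in 5 of 14 alternatives and lost in 9. In limma it was lost without quality weights (adjusted p = 0.196), at a mean CPM of at least 5 (0.336) and without the replicate block (0.700). The input differences of this transcript were 0.61 after depolarization and -0.26 at rest. For transcripts under 1000 nt, the PSD95 to Pan value of the inputs was below 0 in 4 of 4 depolarized pairs and above 0 in 4 of 4 resting pairs, a mean difference of -0.148; whether the states differ here was tested only by sign flips over the 4 replicates (exact p = 0.13, the smallest possible).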

How the results depend on the processing

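The number of calls varied with the setting far more than their direction: the 5 called transcripts kept their sign in every alternative that tested them. Against 5 calls in the pulldowns and 3 in the inputs, edgeR gave 1 and 0, DESeq2 626 and 528, voom without quality weights 0 and 7, no filter 88 and 178, and a mean CPM of at least 5 gave 3 and 6. With no replicate block, limma called 0 in either fraction (2034 pulldown transcripts at an unadjusted p under 0.05). RLE size factors gave 8 in the inputs. In the pulldowns, the 8 depolarized libraries alone gave 0, all 32 libraries in 1 model 133, states from the descriptions 1, and scaling without transcripts over 1% gave 2. Only whole-number transcripts gave 31. Leaving out a replicate number gave 0 to 1 in the pulldowns and 2 to 16 in the inputs, and a single library 0 to 7 in the pulldowns. Chosen after seeing the data, standard errors by contrasts.fit gave 42 and 10 (91 with whole-number transcripts), the 8 libraries without weights 1, edgeR on whole-number transcripts 13, those transcripts with no replicate block 0, and leaving out replicates 1 to 4 in turn among them 6 (2 lower), 3, 66 and 46 (3, 61 and 39 lower). The causes of these shifts were not tested, apart from the number of transcripts or libraries that a setting removes or adds.

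The value for transcripts under 1000 nt stayed below 0 throughout, at -0.177 with states from the descriptions and between -0.406 and -0.307 without 1 replicate. The mean correlation between replicates turned from 0.0018 to -0.0034 with a prior count of 0.5. The paired fit was the one reported, and the block bears on every call. Depth limits transcripts under 200 counts.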
